A study of Mus musculus with 6 samples.

Results

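The BCL2 family genes examined here are the 10 rows of the count table whose symbol is Bcl2, Bcl2l1, Mcl1, Bax, Bak1, Bad, Bid, Bcl2l11, Pmaip1 or Bbc3. All 10 were found among the 35976 symbols of the table, and all 10 were among the 10636 genes with enough counts to be tested. The levels come from 3′ mRNA sequencing of RAW264.7, a mouse macrophage line transformed by the Abelson leukaemia virus. The itaconate group holds 3 libraries of cells exposed to itaconate for 24 h, and the control group holds 3 libraries of cells labelled as not treated. The labels name neither the dose nor the form of itaconate, the dicarboxylate that activated macrophages make from a TCA cycle intermediate, and they name no vehicle. They do not say if replicate libraries stem from separate cultures, and p-values measure the spread between these libraries, which may be technical.

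Proteins of the BCL2 family decide whether the outer membrane of the mitochondrion stays closed. BAX and BAK can assemble into pores that let cytochrome c out and so start the caspases, survival proteins such as BCL2, BCL-xL and MCL1 hold them in check, and BH3-only proteins such as BIM, PUMA, BID, BAD and NOXA either block the survival proteins or activate the pore-formers. Macrophages are known to lean on MCL1 and on the A1 proteins for survival. Only transcripts were counted here. Reads near the 3′ end were summed per gene, so splice forms with opposite effects, such as the long and short forms of Bcl2l1 and Mcl1, were not separated. In bulk libraries, a change in the share of cells that express a gene and a change in RNA per cell cannot be told apart.

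The libraries held 5202626 to 6098934 counts. The 9 macrophage markers on a list (Csf1r, Adgre1, Cd68, Lyz2, Itgam, Ptprc, Fcgr1, Cd14 and Spi1) were all tested, and their summed level ran from 6261 to 6600.3 CPM (counts scaled by TMM-adjusted library size, CPM) in itaconate libraries and from 8420 to 9566 CPM in control libraries. Of these 9 markers 6 were lower, 1 was higher and 2 were not called, and the part of this difference in the results on the BCL2 family was not tested. Markers of fibroblasts, lymphocytes, neutrophils, mast cells and epithelium summed to 2.06 to 3.15 CPM in itaconate libraries and 2.05 to 2.60 CPM in control libraries, with 10 of these 16 markers, among them Cd3e, Ncr1, Cpa3 and Krt8, at 0 counts in all 6 libraries.

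After itaconate, 4 of the 10 BCL2 family transcripts changed at an adjusted p under 0.05 (edgeR's quasi-likelihood test, Benjamini-Hochberg over all genes tested), and each direction held a survival gene and a death gene. The survival gene Mcl1 and the BH3-only gene Pmaip1, which encodes NOXA, fell, and the survival gene Bcl2 and the pore-former gene Bax rose. The call of Bax, whose groups overlapped, was lost in 4 of 13 alternative fits, while those of Mcl1, Pmaip1 and Bcl2 held in all 13. Among all tested genes 21.9% were called, 10.7% as higher and 11.2% as lower, and the members' share of 40% is a description of 10 genes beside that background. The libraries of the groups did not overlap for 4 members (Bcl2 above, and Mcl1, Pmaip1 and Bbc3 below), against 35.6% of all tested genes (17.6% above and 17.9% below). The median log2 fold change (itaconate over control) was -0.04 over the 10 members and -0.0067 over all tested genes. Together the 10 genes took 0.122, 0.123 and 0.136% of counts in itaconate libraries, against 0.149, 0.153 and 0.163% in control libraries, a sum in which Mcl1 has the most reads. Member fold changes ran from -0.98 to 0.70 on the log2 scale.

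**Figure D1:**
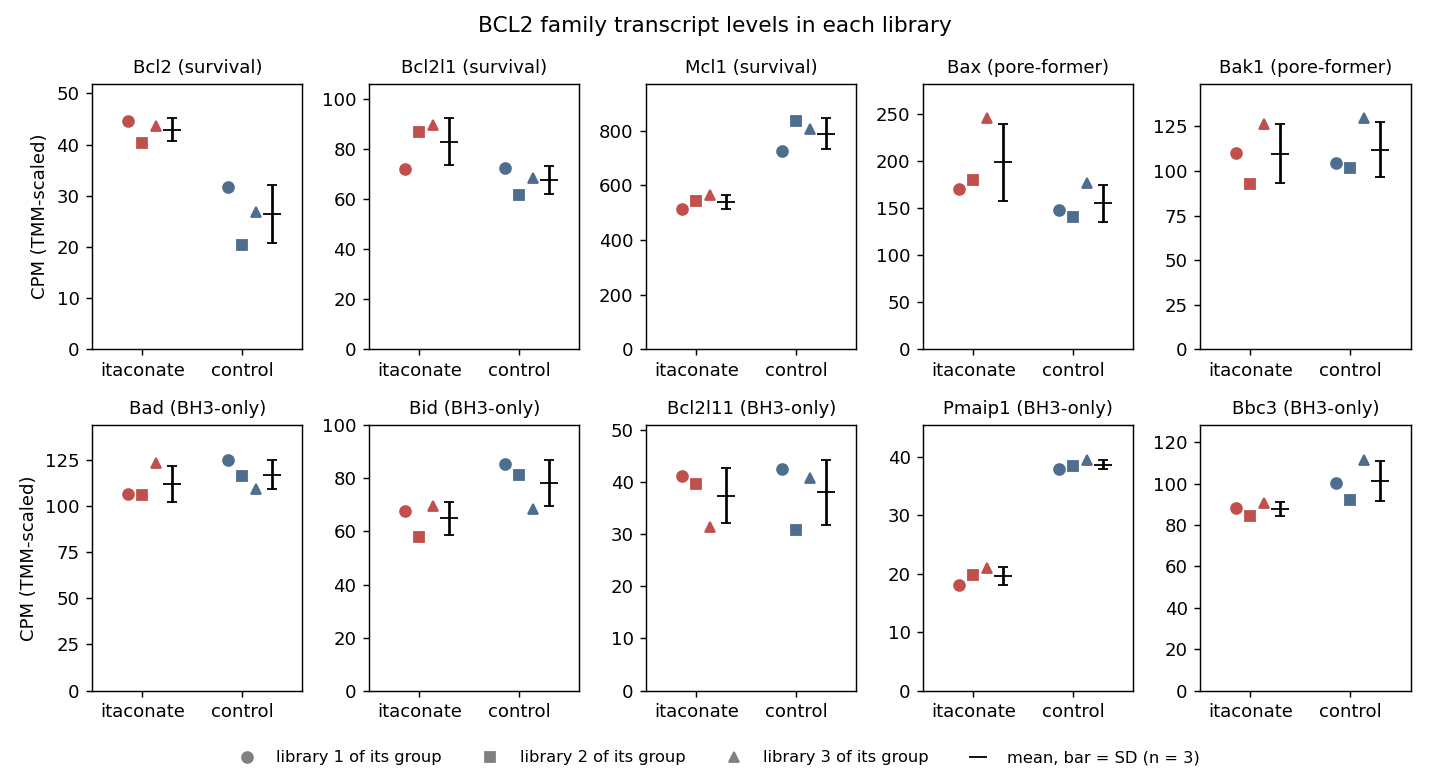
TMM-scaled CPM of the 10 BCL2 family transcripts in each library, itaconate left and control right in each panel, with the mean and SD of 3 libraries beside the points. The itaconate libraries lie above the control libraries for Bcl2 and below them for Mcl1, Pmaip1 and Bbc3, and the groups overlap in the other 6 panels.

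Among the survival genes, Mcl1, whose short-lived protein restrains BAK and binds NOXA and BIM, was lower in every itaconate library. Its level was 514, 542 and 566 CPM in itaconate libraries 1, 2 and 3, against 727, 835 and 808 CPM in control libraries 1, 2 and 3. The groups were far apart, and the highest itaconate value stood well under the lowest control value. The mean was 541 ± 25.8 CPM in the itaconate group and 789.8 ± 56.0 CPM in the control group (SD, n = 3 each), a log2 fold change of -0.55 ± 0.08 (SE, edgeR adjusted p = 2.62e-07), or 0.685-fold. The call held in all 13 alternative fits, with adjusted p from 4.93e-11 to 5.92e-05.

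Mcl1 lies on chromosome 3 from 95658788 to 95663176, on the plus strand (GENCODE, GRCm38). Its promoter is shown because Mcl1 had the smallest adjusted p of the members. The 250 bases before the RefSeq start (GRCm38.p6, chr3:95658471-95658720, plus strand) hold 1 GC box, the hexamer GGGCGG searched on both strands, which is written in capitals:
Mcl1 promoter: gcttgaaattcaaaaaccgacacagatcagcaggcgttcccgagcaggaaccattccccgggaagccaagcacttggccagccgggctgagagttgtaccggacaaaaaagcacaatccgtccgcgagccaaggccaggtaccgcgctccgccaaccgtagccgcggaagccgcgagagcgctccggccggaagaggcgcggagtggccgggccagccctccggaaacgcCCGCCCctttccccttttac

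Bcl2, the founding survival gene of the family, moved in the opposite direction to Mcl1. It was counted at 44.6, 40.4 and 43.7 CPM in itaconate libraries 1 to 3, against 31.8, 20.5 and 26.9 CPM in control libraries 1 to 3. Itaconate libraries were close to each other and all higher, while the control libraries were more spread. The means were 42.9 ± 2.25 CPM in the itaconate group and 26.4 ± 5.69 CPM in the control group (SD, n = 3 each), and the log2 fold change was 0.70 ± 0.18 (SE, edgeR adjusted p = 0.00328, 95% interval 0.33 to 1.07). These values rest on 216 to 250 reads per itaconate library and 126 to 190 reads per control library. Bcl2 was called in all 13 alternative fits, although its adjusted p reached 0.0488 with 1 library left out.

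Bcl2 lies on chromosome 1 from 106538178 to 106714274, on the minus strand, and its exons overlap D630008O14Rik on the opposite strand. GC box numbers vary among the members: windows of Bbc3, which was not called, held 5, 1 and 7, and that of Bax, which rose, held 2. The 250 bases before the RefSeq start of Bcl2 (chr1:106714291-106714540, minus strand) hold 7 GC boxes, again in capitals:
Bcl2 promoter: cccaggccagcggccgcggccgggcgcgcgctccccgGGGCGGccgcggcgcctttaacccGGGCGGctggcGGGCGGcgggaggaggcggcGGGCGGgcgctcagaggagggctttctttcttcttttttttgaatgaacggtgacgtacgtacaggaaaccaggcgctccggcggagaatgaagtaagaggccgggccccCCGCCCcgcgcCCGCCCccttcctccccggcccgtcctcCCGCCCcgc

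Bcl2l1, which encodes BCL-xL, was not called. Its levels were 72.3, 86.9 and 89.9 CPM in itaconate libraries, against 72.7, 61.9 and 68.7 CPM in control libraries. Itaconate libraries 2 and 3 were above every control library, and itaconate library 1 lay between the control values. The log2 fold change of 0.29 ± 0.13 had a 95% interval of 0.03 to 0.56 before adjustment, and its edgeR adjusted p was 0.103. Without itaconate library 1 the log2 fold change was 0.38 and the adjusted p was 0.0496, the only alternative fit of the 13 in which Bcl2l1 was called.

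Of the pore-former genes, Bax rose and Bak1 was not called. Bax transcripts stood at 171, 179.6 and 246 CPM in itaconate libraries 1 to 3, against 148, 140.3 and 177 CPM in control libraries 1 to 3. The groups overlapped, since itaconate library 1 lay below control library 3, and itaconate library 3 was the highest of all. The means were 199 ± 40.8 CPM in the itaconate group and 155 ± 19.4 CPM in the control group (SD, n = 3 each), with a log2 fold change of 0.36 ± 0.11 (SE, edgeR adjusted p = 0.0212). The call was lost without itaconate library 3 (log2 fold change 0.18, adjusted p = 0.278), without control library 1 (0.33, adjusted p = 0.0771), without control library 2 (0.29, adjusted p = 0.122) and with scaling by library totals (0.30, adjusted p = 0.0524). In addition, 16.8% of the 50-base windows near the 3′ ends of Bax transcripts also occur in Gm45808, which overlaps Bax on the same strand.

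Bax lies on chromosome 7 from 45461697 to 45466898, on the minus strand, and is a textbook target of p53. Its promoter is shown because, among the member promoters, it held the only match to the p53 half-site, a 10-base motif found in 7.13% of all mouse promoter windows. A single half-site is not a full p53 element. Over the 250 bases before the RefSeq start (chr7:45466899-45467148, minus strand), capitals mark that match, 201 to 192 bases before the start, and 2 GC boxes:
Bax promoter: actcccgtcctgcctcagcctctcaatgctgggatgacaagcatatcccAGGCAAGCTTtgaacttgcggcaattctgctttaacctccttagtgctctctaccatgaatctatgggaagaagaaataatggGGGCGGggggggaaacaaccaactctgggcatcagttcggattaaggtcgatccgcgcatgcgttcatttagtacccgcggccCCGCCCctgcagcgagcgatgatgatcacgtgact

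Promoters were matched for 9 of the 10 members, all but Pmaip1, with 15 windows because some members have several starts, and 8 motifs were searched on both strands. The GC box was present in 10 of the 15 windows, against 32.7% of the 32851 mouse promoter windows of the same length. Those were not matched for GC content, which reached 81.6% in a window of Bbc3. By member, where a match at any start counts, 7 of 9 had a GC box. The share of all genes by this rule was not computed, and the 32.7% counts windows, so it is no background for that number. The p53 half-site stood in 1 of the 15 windows, against 7.13% of all windows, and the core of the antioxidant response element bound by NRF2 (TGACNNNGC) also stood in 1, a start of Bcl2l1, against 10.2%. The CCAAT box (CCAAT) was found in 4 windows, of Bad, Bbc3 and Bcl2l11, against 33.8%. No window held the CRE (TGACGTCA), a C/EBP-ATF composite site (TTGCATCA), a STAT site (TTCNNNGAA) or the NF-kB consensus site, which stood in 1.55%, 0.791%, 7.02% and 0.356% of all windows. GC content was 64.4% in the printed Mcl1 window, 74.8% in that of Bcl2 and 54% in that of Bax. A match describes letters in a window and does not show binding.

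Bak1, the partner of BAX, was at 110.2, 92.9 and 126 CPM in itaconate libraries and at 104, 102 and 129 CPM in control libraries. The groups overlapped, with itaconate library 2 the lowest and control library 3 the highest of all. The log2 fold change was -0.03 ± 0.12 (edgeR adjusted p = 0.915, 95% interval -0.27 to 0.21). Bak1 exons overlap Ggnbp1 on the opposite strand, and the strand setting of the counting is not given in the sources used here.

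Among the 5 BH3-only genes, Pmaip1 fell and the other 4 were not called. NOXA, the protein of Pmaip1, binds MCL1 and promotes its degradation. Pmaip1 had 18.1, 19.8 and 21.0 CPM in itaconate libraries 1 to 3, against 38.0, 38.5 and 39.6 CPM in control libraries 1 to 3. Every itaconate library was lower than every control library, and the spread within each group was small beside the gap. The log2 fold change of -0.98 ± 0.19 (SE, edgeR adjusted p = 8.4e-05, 0.508-fold) was the lowest of the 10 members, and only 5.37% of all tested genes had a log2 fold change as low or lower. It rests on 96, 106 and 120 reads in itaconate libraries and 227, 237 and 212 reads in control libraries. Pmaip1 was called in all 13 alternative fits, with adjusted p from 8.65e-06 to 0.00105.

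Bbc3, which encodes PUMA, a BH3-only protein that p53 and FOXO factors can induce, had 88.3, 84.3 and 90.8 CPM in itaconate libraries, against 100.1, 92.1 and 112 CPM in control libraries. All itaconate libraries were lower, but by a small margin, and the log2 fold change of -0.20 ± 0.12 was not called (edgeR adjusted p = 0.228, 95% interval -0.44 to 0.03). Bid, whose protein links death receptors to the mitochondrion once caspase-8 has cleaved it, had 67.6, 57.9 and 69.6 CPM in itaconate libraries, against 85.4, 81.2 and 68.7 CPM in control libraries. Control library 3 lay among the itaconate values, and Bid was not called (log2 fold change -0.27 ± 0.13, edgeR adjusted p = 0.151). Bid exons overlap Bcl2l13 on the opposite strand.

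Bad, a BH3-only gene whose protein is kept inactive by phosphorylation and 14-3-3 binding, had 107, 106 and 123 CPM in itaconate libraries, against 125, 116 and 109 CPM in control libraries. The groups overlapped, with itaconate libraries 1 and 2 below every control library and itaconate library 3 above control libraries 2 and 3 (log2 fold change -0.06 ± 0.11, edgeR adjusted p = 0.754, 95% interval -0.29 to 0.16). Bad exons overlap Gpr137 on the opposite strand. Bcl2l11, the gene of BIM, a broad binder of survival proteins that kills cells deprived of growth factors, had 41.1, 39.6 and 31.3 CPM in itaconate libraries, against 42.5, 30.9 and 40.7 CPM in control libraries. The lowest value of each group was about the same, and the log2 fold change was -0.03 ± 0.18 (edgeR adjusted p = 0.94, 95% interval -0.38 to 0.33). The intervals of Bak1, Bad and Bcl2l11 include 0 but do not show that the groups were alike.

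**Figure D2:**
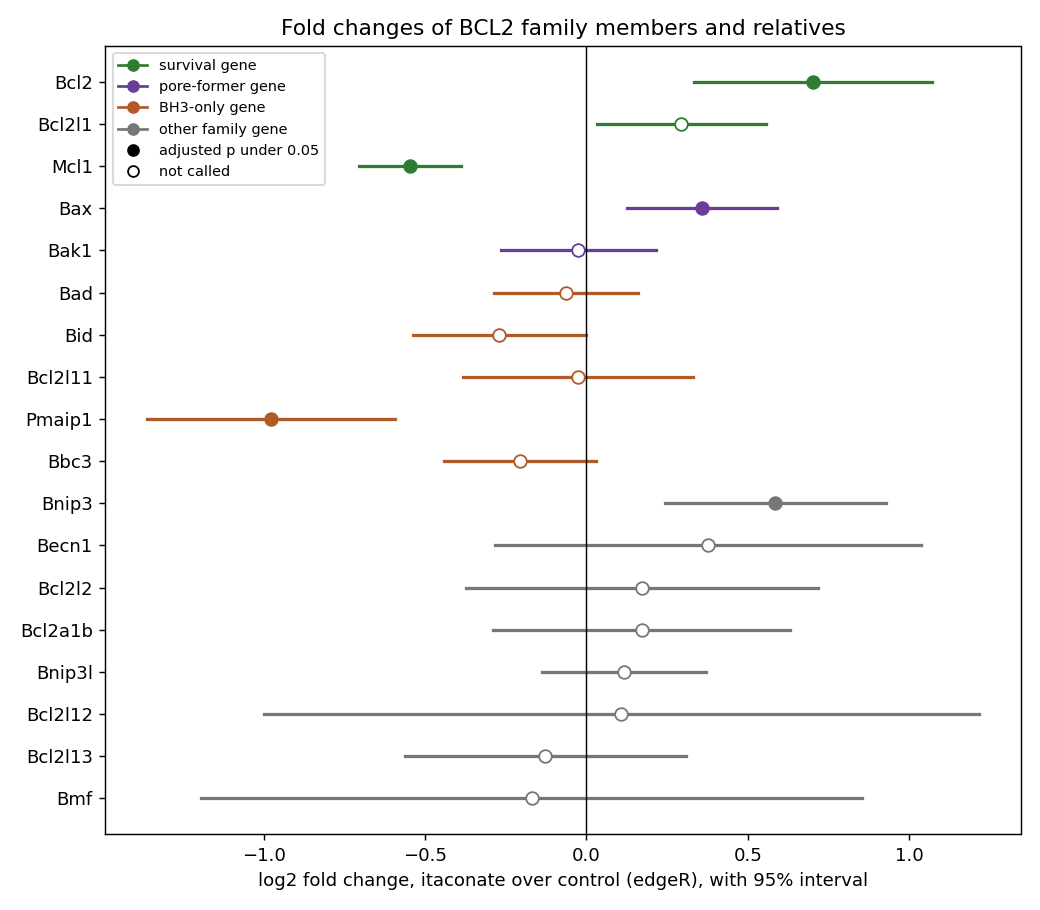
Log2 fold change of itaconate over control for the 10 BCL2 family members by role and for 8 tested relatives, with 95% intervals before adjustment; filled points passed an adjusted p of 0.05. Bcl2, Bax and Bnip3 are filled on the right of 0, and Mcl1 and Pmaip1 on the left.

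Ratios within a library do not depend on how libraries are scaled, and 4 pairs of a death gene and a survival gene were set side by side, without a test. Pmaip1 over Mcl1, whose proteins are known to bind each other, had log2 ratios of read counts of -4.83, -4.77 and -4.75 in itaconate libraries, against -4.26, -4.44 and -4.35 in control libraries. All itaconate ratios were lower, by 0.44 on average on the log2 scale, so that Pmaip1 was lower even relative to Mcl1, which itself fell. Bax over Bcl2 had count ratios of 3.83, 4.45 and 5.62 in itaconate libraries, against 4.66, 6.86 and 6.60 in control libraries. Both genes were called higher, and the groups overlapped in this ratio, with a mean log2 difference of -0.38 (itaconate minus control).

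Bcl2l11 over Bcl2l1 had count ratios of 0.568, 0.456 and 0.348 in itaconate libraries, against 0.585, 0.499 and 0.592 in control libraries. Itaconate library 1 lay among the control values. Bcl2l11 over Mcl1 had log2 ratios of -3.65, -3.77 and -4.18 in itaconate libraries, against -4.10, -4.76 and -4.31 in control libraries. Here itaconate libraries 1 and 2 were higher than every control library and itaconate library 3 was not. Ratios between genes also carry how well each 3′ end is captured, so only the difference between groups can be read.

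**Figure D3:**
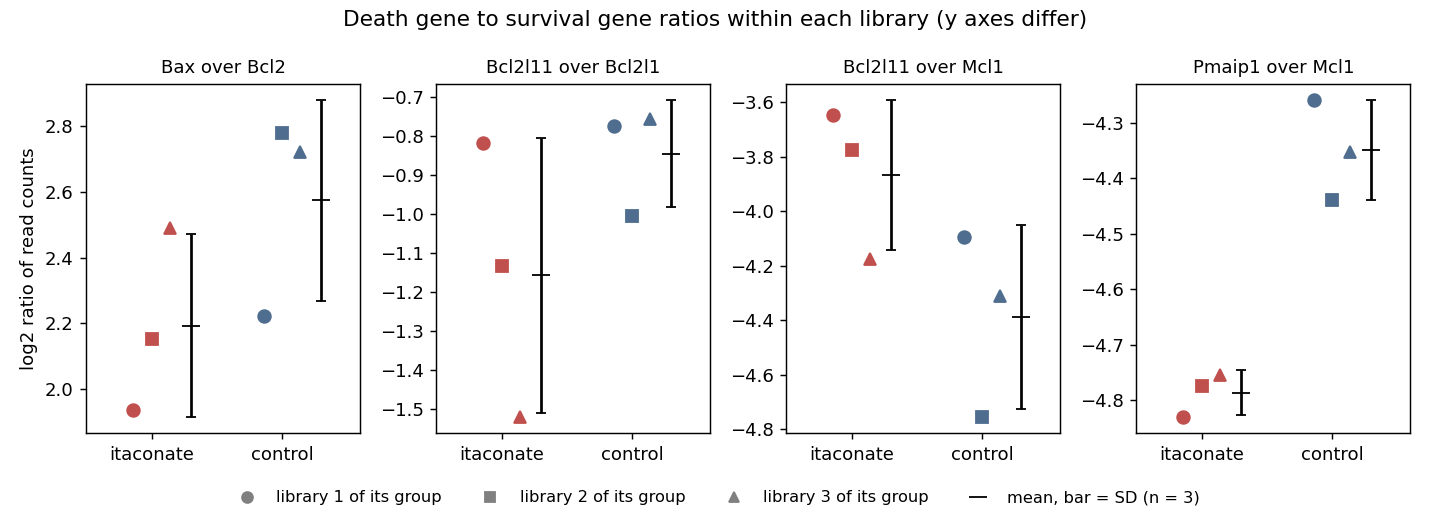
Log2 ratio of read counts between a death gene and a survival gene in each library, itaconate left and control right, with the mean and SD of 3 libraries. Only for Pmaip1 over Mcl1 do the groups not overlap, with itaconate ratios between -4.83 and -4.75 and control ratios between -4.44 and -4.26.

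Of 17 further genes of the BCL2 family and BH3 proteins on a list, 8 had enough counts to be tested, of which 1 rose and 0 fell, with a median log2 fold change of 0.14. That is 12.5% called, against 21.9% of all tested genes. The gene that rose was Bnip3, a BH3 protein gene of mitophagy that hypoxia induces, with 45.0, 48.2 and 46.2 CPM in itaconate libraries, against 32.6, 33.9 and 26.1 CPM in control libraries. All itaconate libraries were higher (log2 fold change 0.59 ± 0.17, edgeR adjusted p = 0.00891), but the call was lost without control library 3 (adjusted p = 0.0656). Of the 3′ windows of Bnip3, 60.4% also occur in other annotated genes, mostly predicted ones, which makes its count uncertain.

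Its relative Bnip3l had a log2 fold change of 0.12 ± 0.13, and Bcl2l2, the gene of the survival protein BCL-w, had 0.17 ± 0.27. Becn1, the autophagy gene with a BH3 domain, had 0.38 ± 0.33, Bcl2l12 had 0.11 ± 0.55, Bcl2l13 had -0.13 ± 0.22 and the BH3-only gene Bmf had -0.17 ± 0.51. None of these was called, and 38.3% of the 3′ windows of Bcl2l2 and 50.7% of those of Becn1 are shared with Gm20521 and Cntd1. Of the A1 survival genes, Bcl2a1b had 22.8, 25.4 and 18.9 CPM in itaconate libraries and 21.1, 23.6 and 14.7 CPM in control libraries. The groups overlapped (log2 fold change 0.17 ± 0.23, edgeR adjusted p = 0.664), and 83.2% of its 3′ windows are shared with its near-identical copies Bcl2a1a and Bcl2a1d and with Gm29094. Those copies had 2 and 15 counts summed over the itaconate group and 2 and 14 over the control group. With so many shared windows, both the split between the copies and the level of Bcl2a1b are uncertain.

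The other 7 untested genes were near or at 0. Bcl2a1c, Bcl2l10 and Hrk had 0 counts in all 6 libraries, and Bok had 0 counts over the itaconate group and 2 over the control group. Bik had 0, 0 and 11 counts in itaconate libraries 1 to 3, against 0, 0 and 1 in control libraries 1 to 3, so itaconate library 3 alone carried most of its reads. Bcl2l14 had 3 counts over the itaconate group and 0 over the control group, and Bcl2l15 had 10 and 13.

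Downstream of the mitochondrion, the apoptosome and caspase genes had 0 of 11 higher and 2 lower, with a median log2 fold change of -0.17. The share called was 18.2%, against 21.9% of all tested genes. Parp1, the DNA repair enzyme that caspases cleave, had 94.4 ± 2.73 CPM in the itaconate group and 142 ± 17.2 CPM in the control group (SD, n = 3 each), a log2 fold change of -0.59 ± 0.11 (edgeR adjusted p = 5.24e-05). Casp2, a caspase gene of DNA damage and mitotic stress, had -0.64 ± 0.19 (edgeR adjusted p = 0.0111), a call lost without itaconate library 3 (adjusted p = 0.068) or control library 1 (0.0535). Chosen after their values were seen, Apaf1, the scaffold of the apoptosome, and Casp9, the caspase it activates, were not called, with 0.07 ± 0.22 and 0.08 ± 0.16, and neither was Casp8, the initiator that cleaves BID (0.25 ± 0.16). Among mitochondrial factors, whose median was 0.16, 1 of 9 rose, the porin gene Vdac1 (0.24 ± 0.09, edgeR adjusted p = 0.0414), a call lost in 7 of the 13 alternative fits (adjusted p up to 0.278). Of this list 11.1% was called, against the same 21.9% of all tested genes. Vdac2, whose porin is known to hold BAK at the membrane, had 0.16 ± 0.08 and Bcap31, an endoplasmic reticulum protein that caspase-8 cleaves, had 0.23 ± 0.11, with all itaconate libraries higher and neither called.

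The inhibitor of apoptosis list had 0 of 8 higher and 2 lower, with a median of -0.23. Its share called was 25%, beside 21.9% of all tested genes. Birc5, survivin, which also serves chromosome segregation in dividing cells, had 8.47, 10.1 and 11.9 CPM in itaconate libraries, against 126, 97.0 and 126 CPM in control libraries. The itaconate libraries lay far below the control libraries (log2 fold change -3.51 ± 0.17, edgeR adjusted p = 8.31e-23). Birc6 had -0.30 ± 0.10 (edgeR adjusted p = 0.0251), a call lost without itaconate library 1 (0.11), control library 1 (0.108) or control library 2 (0.0734), and Birc3, a target of NF-kB, had -0.43 ± 0.25 and was not called. In the death receptor pathway 1 of 9 rose and 1 fell (22.2% called, against 21.9% of all tested genes), with a median of 0.07. The TNF receptor gene Tnfrsf1a had a log2 fold change of 0.42 ± 0.12 (edgeR adjusted p = 0.00488), while Fadd, the adaptor that brings caspase-8 to the receptor, had -0.91 ± 0.26 (edgeR adjusted p = 0.008), a call lost without control library 2 (adjusted p = 0.0964), and its exons overlap the antisense gene Faddos. The TRAIL receptor gene Tnfrsf10b had 0.85 ± 0.45 and was not called, with 5.77 to 8.97 CPM in itaconate libraries and 3.18 to 4.87 CPM in control libraries.

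Among 17 tested genes whose proteins modify, bind or degrade BCL2 proteins, 2 rose and 1 fell, with a median of -0.02. That is 17.6% called, against 21.9% of all tested genes. The rising genes were the kinase genes Pim1 (0.61 ± 0.15, edgeR adjusted p = 0.00233) and Akt1 (0.35 ± 0.09, edgeR adjusted p = 0.00233), whose proteins can phosphorylate BAD. Of the 3′ windows of Pim1, 19.2% are shared with Gm26885 on the opposite strand. Dynll1, the dynein light chain that binds BIM, had -0.35 ± 0.11 (edgeR adjusted p = 0.0137), a call lost without itaconate library 2 (adjusted p = 0.15). Chosen after their values were seen, the MCL1 ubiquitin ligase genes Huwe1 and Fbxw7 and the deubiquitinase gene Usp9x had log2 fold changes of -0.05 ± 0.10, 0.03 ± 0.12 and -0.20 ± 0.25, and none was called. Trim17, another ubiquitin ligase gene of this list named after its value was seen, had 0.62 ± 0.70, the highest of the list. It was not called and had few reads (23, 5 and 22 in itaconate libraries, 11, 20 and 4 in control libraries).

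Transcription factors known to act on BCL2 family genes moved in both directions, with 3 of 11 higher and 4 lower and a median of -0.17. Called genes made up 63.6% of this list, chosen with earlier results of these data known, against 21.9% of all tested genes. Ddit3, which encodes CHOP, a stress factor, had 41.8, 31.2 and 33.9 CPM in itaconate libraries, against 20.4, 15.1 and 14.9 CPM in control libraries (log2 fold change 1.08 ± 0.21, edgeR adjusted p = 6.69e-05). Atf4, the factor upstream of it, rose, with a log2 fold change of 0.45 ± 0.08 (edgeR adjusted p = 7.38e-06) and Spi1, the gene of the myeloid factor PU.1, had a log2 fold change of -0.34 ± 0.08 (edgeR adjusted p = 0.00119) and is also 1 of the 9 macrophage markers. Chosen after their values were seen, Trp53, the gene of p53, averaged 13.1 CPM in the itaconate group and 24.4 CPM in the control group, with no overlap of libraries (log2 fold change -0.89 ± 0.25, edgeR adjusted p = 0.00531). E2f1, a factor of the cell cycle, had -0.84 ± 0.21 (edgeR adjusted p = 0.00205), Rela, a subunit of NF-kB, had -0.50 ± 0.14 (0.00428), and Hif1a, the hypoxia factor, had 0.43 ± 0.14 (0.0176), a call lost without itaconate library 1 (0.133) or control library 1 (0.0598). The exons of Ddit3 overlap Mars on the opposite strand.

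Of 17 tested p53 targets outside the BCL2 family, 4 rose and 2 fell, with a median log2 fold change of 0.20. That is 35.3% called, against 21.9% of all tested genes. Gdf15, a stress cytokine gene, had 17.9, 19.2 and 18.4 CPM in itaconate libraries, against 2.34, 6.66 and 5.41 CPM in control libraries. Every itaconate library was well above the control libraries (log2 fold change 1.94 ± 0.33, edgeR adjusted p = 9.7e-06). Tigar, a regulator of glycolysis, rose, with a log2 fold change of 0.82 ± 0.19 (edgeR adjusted p = 0.000959) and Mdm2, the ligase that degrades p53, also rose, with 0.49 ± 0.11 (0.00101). Named after their values were seen, Plk2 had 1.46 ± 0.35 (edgeR adjusted p = 0.00118), Sesn1 had -0.63 ± 0.18 (0.00648) and Btg2 had -0.64 ± 0.19 (0.00874), the last lost without control library 3 (0.0602). The other 11 were not called, with log2 fold changes from -0.58 (Trp53inp1) to 0.85 (Sesn2). Of these, also named after its value was seen, Cdkn1a averaged 416 CPM in the itaconate group and 417 CPM in the control group. Its log2 fold change was -0.0038 ± 0.08 (edgeR adjusted p = 0.983). Bax, Bbc3 and Pmaip1, the p53 targets within the family, had log2 fold changes of 0.36, -0.20 and -0.98, of which Bax rose, Pmaip1 fell and Bbc3 was not called.

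**Figure D4:**
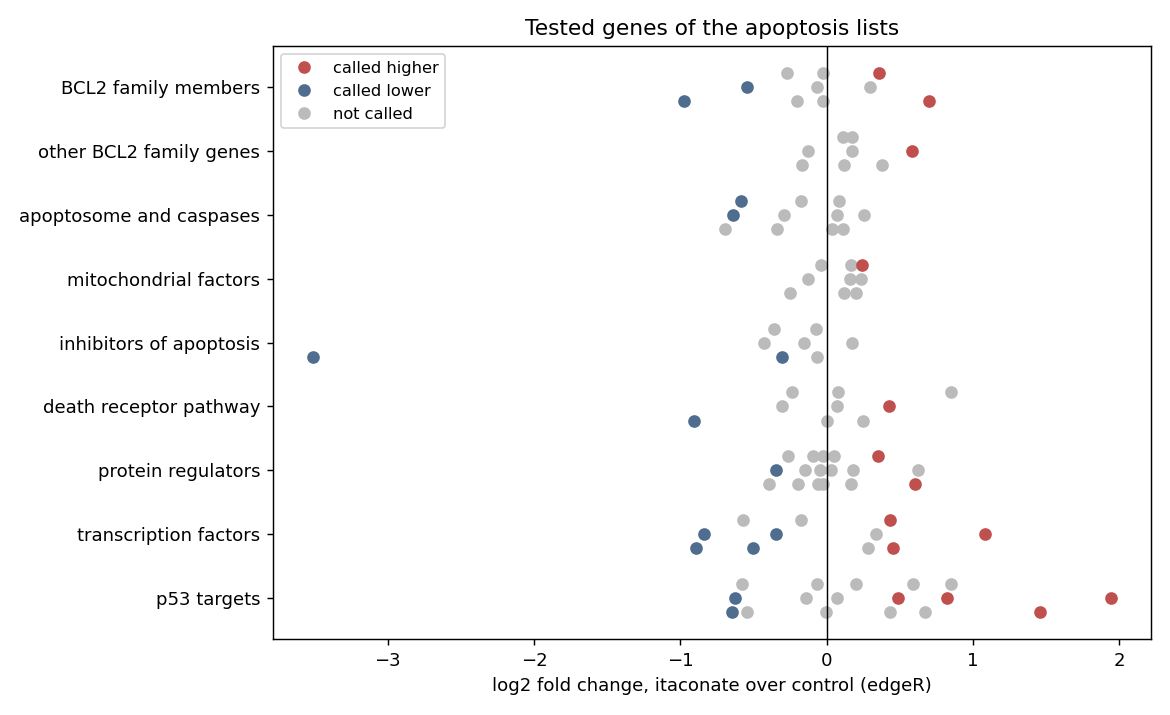
Log2 fold change of itaconate over control for each tested gene of the BCL2 family and of the apoptosis lists, 1 row a list, with red points called higher, blue points called lower and grey points not called. Called points lie on both sides of 0 for the BCL2 family members, the death receptor pathway, the protein regulators, the transcription factors and the p53 targets, and Birc5 is the point at -3.51.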

How the data were processed

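The data are 6 libraries of 3′ mRNA sequencing, 3 from itaconate cells and 3 from control cells. The deposited table holds raw read counts per gene symbol; the submitters' processing notes list STAR 2.7.5a, HTSeq 0.6.1, edgeR and build mm10, and whether reads were counted by strand is not given in the sources used here. Its header is tab-separated and its rows are space-separated, so columns were read by position in the header's order; all 6 count columns were used and 0 belonged elsewhere. Genes were kept by edgeR's filterByExpr (minimum count 10, minimum total 15), which left 10636 genes with 99.741% of counts; 3 counts, the limit that a count of 0 allows, were 0.492 to 0.577 CPM, and this covers counting error only. Itaconate was compared with control by edgeR 4.0.16 (R 4.3.3), with TMM scaling and the robust quasi-likelihood F test. Adjustment was by Benjamini-Hochberg over all genes, with a threshold of 0.05. The fit was also run on simulated counts of independent libraries, drawn with the dispersions estimated from these data. That run cannot show whether the replicates here are technical. The SE is the log2 fold change over the square root of F. DESeq2 1.42.0, limma 3.58.1 (voom), other scalings and filters, a replicate block and each library left out in turn were tried. The members and lists were chosen with earlier results of these data known. Named genes are all members, the tested relatives and the 3 of each list with the smallest p; others are said to be chosen after their values were seen. Gene places are from GENCODE (GRCm38) and promoters from RefSeq.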

Additional observations from a re-analysis of the deposited data

How the results depend on the processing

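Mcl1, Pmaip1 and Bcl2 were called in the same direction in all 13 alternative fits, and Bax in 9 of 13. Scaling by library totals moved the median log2 fold change of all genes by -0.05 and left 1 member called higher in place of 2. Leaving out 1 library gave 1 to 3 members called higher. The number called lower was 2 in every fit. Replicate numbers showed no clear pairing: deviations of same-numbered libraries correlated at -0.0135, 0.0171 and 0.038. Those of libraries with different numbers correlated at -0.042 to 0.028. With 3 libraries per group, this cannot show whether libraries shared a culture or day. With the replicate block 4 members were called, 2 in each direction, and 2247 genes in all, against 2324 without it. Calls of Bnip3, Casp2, Birc6, Fadd, Dynll1, Hif1a, Btg2 and Vdac1 were lost in at least 1 alternative. Uncalled genes changed sign when 1 library was left out, and the cause was not tested: log2 fold changes ran from -0.14 to 0.090 for Bak1, -0.16 to 0.088 for Bcl2l11, -0.42 to 0.074 for Bmf, -0.28 to 0.37 for Bcl2l12, -0.30 to 0.10 for Bcl2l13, -0.080 to 0.25 for Apaf1 and -0.036 to 0.22 for Casp9. With 1 library left out, the log2 differences in ratio kept their sign and ran from -0.56 to -0.25 for Bax over Bcl2 (-0.25 without itaconate library 1), -0.48 to -0.13 for Bcl2l11 over Bcl2l1 (-0.48 without itaconate library 1, -0.13 without itaconate library 3), 0.34 to 0.68 for Bcl2l11 over Mcl1 (0.34 without control library 2) and -0.48 to -0.39 for Pmaip1 over Mcl1.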
